A study of Rattus norvegicus with 24 samples.

Results

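Macrophage marker genes were described across brown adipose tissue (BAT), white adipose tissue (WAT) and liver of fed and fasted rats. The list held 10 genes, Cd68, Cd163, Csf1r, Mrc1, Cd14, Itgam, Marco, Cd5l, C1qa and C1qb, and each was read from the probe sets annotated to its symbol and no other. By this rule 9 of the 10 genes had a probe set, of 14217 genes in all, and 10 of the 20826 probe sets with a single symbol were theirs, since Cd5l had 2. Marco, a scavenger receptor gene, was not analysed here. The animals were male Wistar rats of 8 weeks with no genetic modification named, and all of them had been offered food only from 10:00 to 16:00 for 7 days. On day 8 the fed group was offered food as before and the fasted group, 24 h without food, was not, and interscapular BAT, perinephrial WAT and liver were taken from both. Each of the 6 groups of tissue and feeding had 4 arrays, from fed animals 1, 2, 4 and 5 and fasted animals 6, 8, 9 and 10. The same numbers recur in the 3 tissues, but no label says that equal numbers are 1 rat. The arrays carried RNA from whole tissue, so that fewer macrophages and less of a transcript in each macrophage cannot be told apart.

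Macrophages live in every tissue as resident cells or arise there from blood monocytes, and they clear debris and dying cells, handle iron and lipid, and sense microbes. The liver holds a large resident population, the Kupffer cells, along the sinusoids. Fat holds macrophages among its adipocytes, and they are known to take up lipid that adipocytes release. The genes described here encode a lysosomal protein (Cd68), endocytic and scavenger receptors (Cd163, Mrc1), the receptor for the macrophage growth factors (Csf1r), a co-receptor for bacterial lipopolysaccharide (Cd14), an integrin chain (Itgam) and secreted proteins (C1qa and C1qb of the first complement component, and Cd5l). None of them is made by macrophages alone in every setting, since neutrophils carry Itgam, hepatocytes can make Cd14, and endothelial cells of liver sinusoids can make Mrc1.

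Tissue identity was checked on markers of other cells. Signals are intensities that were scaled to a common array mean, and each group value is the mean ± SD of n = 4 arrays. Ucp1, the uncoupling protein of brown fat, was at 11463 ± 1319 in fed BAT, at 11.5 ± 9.9 in fed WAT and at 3.68 ± 2.58 in fed liver. Clec4f, a lectin gene of Kupffer cells in rodents, was at 1240.2 ± 237 in fed liver, and no array of BAT or WAT exceeded 8.3. Skeletal muscle markers, 13 genes on the array, were uneven in both fat tissues. Their mean log2 level was 7.05, 5.30, 4.50 and 11.53 in fed BAT animals 1, 2, 4 and 5, and 11.87 to 12.31 in the 4 fasted BAT arrays. In WAT it was 3.62 to 4.14 in the fed arrays, 4.53 and 4.04 in fasted animals 6 and 9, and 10.94 and 11.91 in fasted animals 8 and 10. The summed signal of 7 T cell markers was 3190 in WAT of fed animal 1 and 1372 and 1601 in WAT of fasted animals 6 and 8, against 164 to 247 in the other 5 WAT arrays. The 2 B cell markers on the array were high in WAT of the same 3 animals, at 582 to 1031 against 10.4 to 109. The ratio of the 3′ to the 5′ actin probe set, a sign of RNA integrity, was 1.93 and 1.80 on the log2 scale in BAT of fed animals 1 and 4, and 0.85 to 1.07 in the other 6 BAT arrays. The same ratio for Gapdh did not mark these 2 arrays as high. It was 0.23 and 0.24 there, and 0.27 to 0.34 in the other 6 BAT arrays. The actin ratio was 0.79 to 1.35 in WAT and 1.19 to 2.00 in liver.

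**Figure D1:**
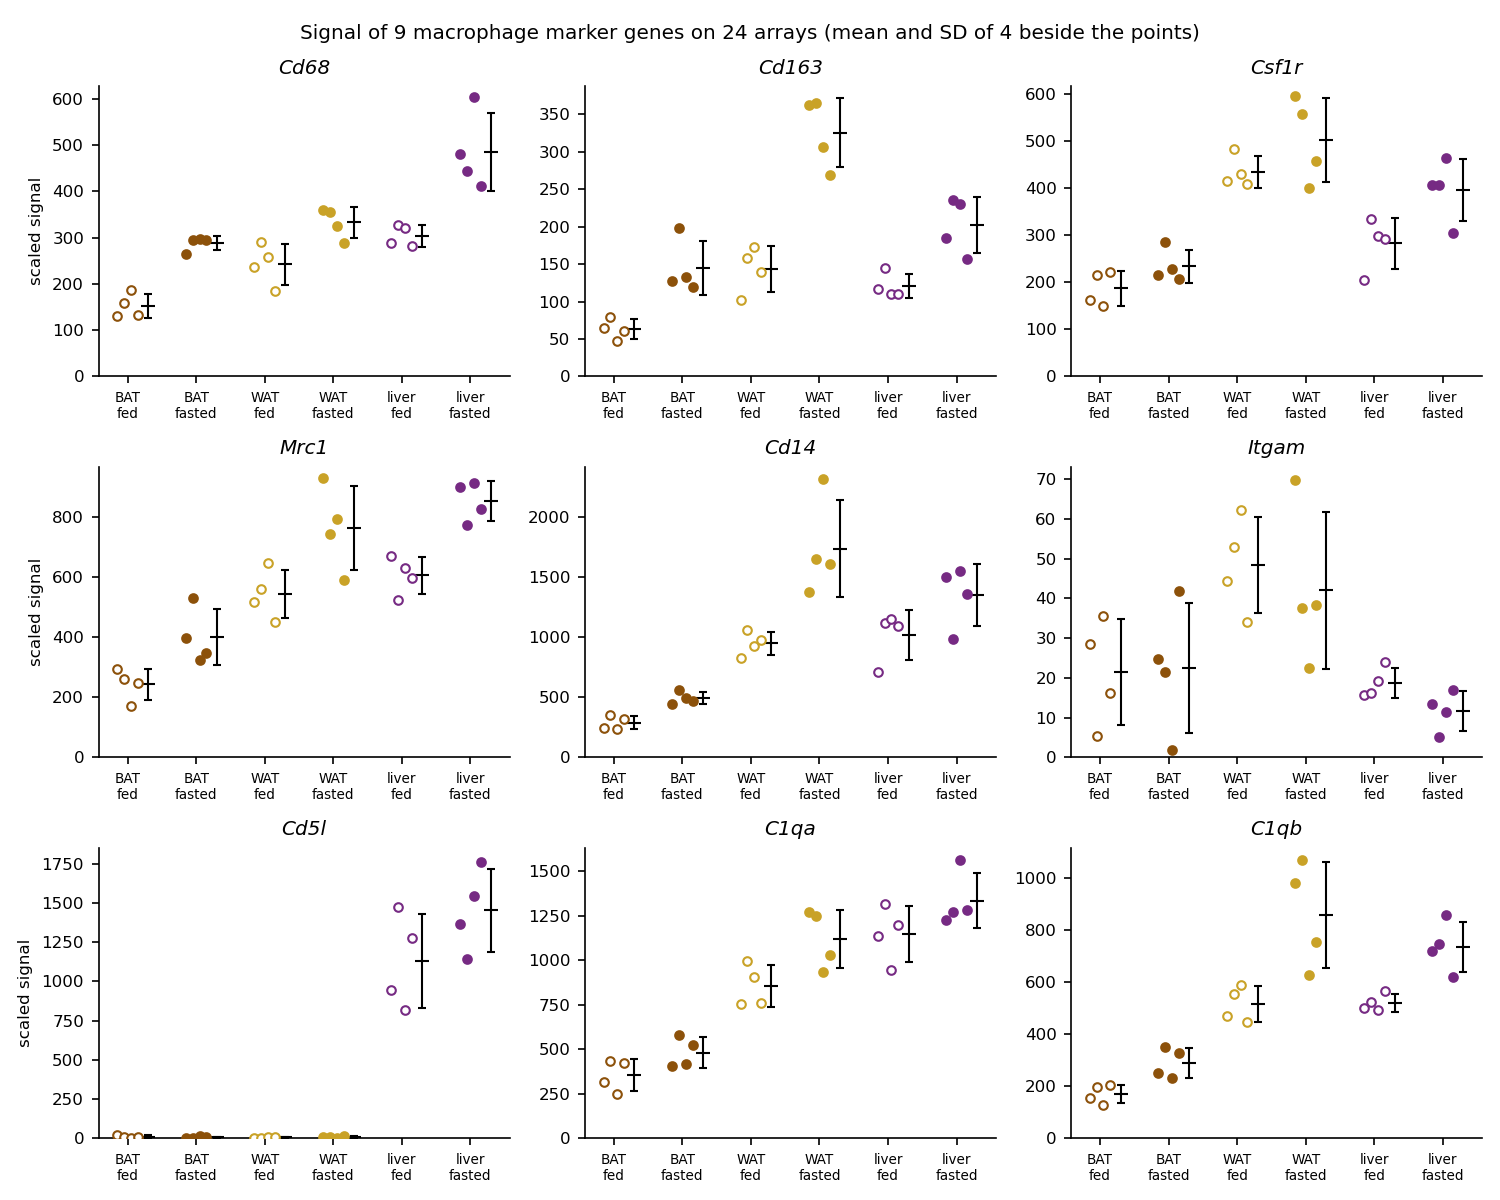
Scaled signal of the 9 macrophage marker genes on each of the 24 arrays, by tissue and feeding, with open points for fed and filled points for fasted animals and the mean and SD of 4 arrays beside them. Cd5l lies near 0 in both fat tissues and between 818 and 1763 in liver, and Cd163 is higher in all 4 fasted arrays than in any fed array of the same tissue.

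Of the members, Cd163 and C1qb rose with fasting in all 3 tissues. Their promoters from RefSeq on build GRCr8 are shown because these 2 genes carry that pattern. Each runs from 250 bases before to 50 bases after the annotated start and reads along the gene. Cd163 is on the plus strand at chr4:158770524-158770823, and C1qb is on the minus strand at chr5:154407778-154408077. Capitals mark the letters GAGGAA or their reverse complement TTCCTC, the core of sites that the macrophage factor PU.1 is known to bind.
Cd163: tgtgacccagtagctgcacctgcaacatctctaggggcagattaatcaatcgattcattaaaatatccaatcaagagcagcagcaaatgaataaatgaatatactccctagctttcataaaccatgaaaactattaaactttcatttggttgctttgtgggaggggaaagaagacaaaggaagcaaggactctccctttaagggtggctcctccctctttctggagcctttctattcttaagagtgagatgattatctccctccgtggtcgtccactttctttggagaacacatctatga
C1qb: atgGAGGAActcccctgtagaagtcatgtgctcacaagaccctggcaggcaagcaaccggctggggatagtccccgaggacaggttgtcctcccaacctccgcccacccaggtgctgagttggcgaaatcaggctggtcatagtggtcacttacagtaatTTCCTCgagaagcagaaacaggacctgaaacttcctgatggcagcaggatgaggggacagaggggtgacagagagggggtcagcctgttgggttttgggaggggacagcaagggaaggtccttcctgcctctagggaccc
The C1qb promoter held the core letters starting at -247 and at -90 from the start, and the Cd163 window held none. Of the 10 listed promoters 8 held GAGGAA on either strand, all but Cd163 and C1qa, and 27.6% of the 33469 rat promoters of this length held it. The glucocorticoid receptor half-site AGAACA was in the Cd163 window alone among the 10 (20.7% of all promoters). The AP-1 letters TGANTCA were in the Cd68 window alone (7.33% of all promoters), and the E-box CACGTG was in none of the 10 (6.42%). All 4 motifs were searched on both strands, and the letters of none contain those of another. A match describes the sequence and does not show a bound site.

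In BAT, 5 of the 7 members tested rose with fasting and none fell, by limma with Benjamini-Hochberg adjustment over all genes tested and an adjusted p under 0.05. They were Cd163, Cd68, Cd14, C1qb and Mrc1, and the fed and fasted arrays of the same 5 did not overlap. For comparison, 13.8% of the 10341 genes tested in BAT rose, 26.9% changed in either direction, and 14.8% were higher with no overlap. The median log2 change was 0.76 over the 7 members and 0.01 over all genes. Itgam and Cd5l were below the filter on low signals in BAT. In WAT, 3 of 8 members tested rose and none fell (8.64% of 10275 genes rose, and 18.2% changed in either direction). These were Cd163, Cd14 and C1qb, which were also the members without overlap (11.1% of genes were higher with no overlap), and the median change was 0.48 against 0.03 for all genes. In liver, 4 of 9 members rose and none fell (9.44% of 10251 genes rose, and 18.0% changed). These were Cd163, Cd68, Mrc1 and C1qb, the members without overlap (11.9% of genes were higher with no overlap), and the median change was 0.49 against 0.03. Of the 7 members tested in all 3 tissues 2 rose in each, and 2.11% of the 9168 genes tested in all 3 did so.

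**Figure D2:**
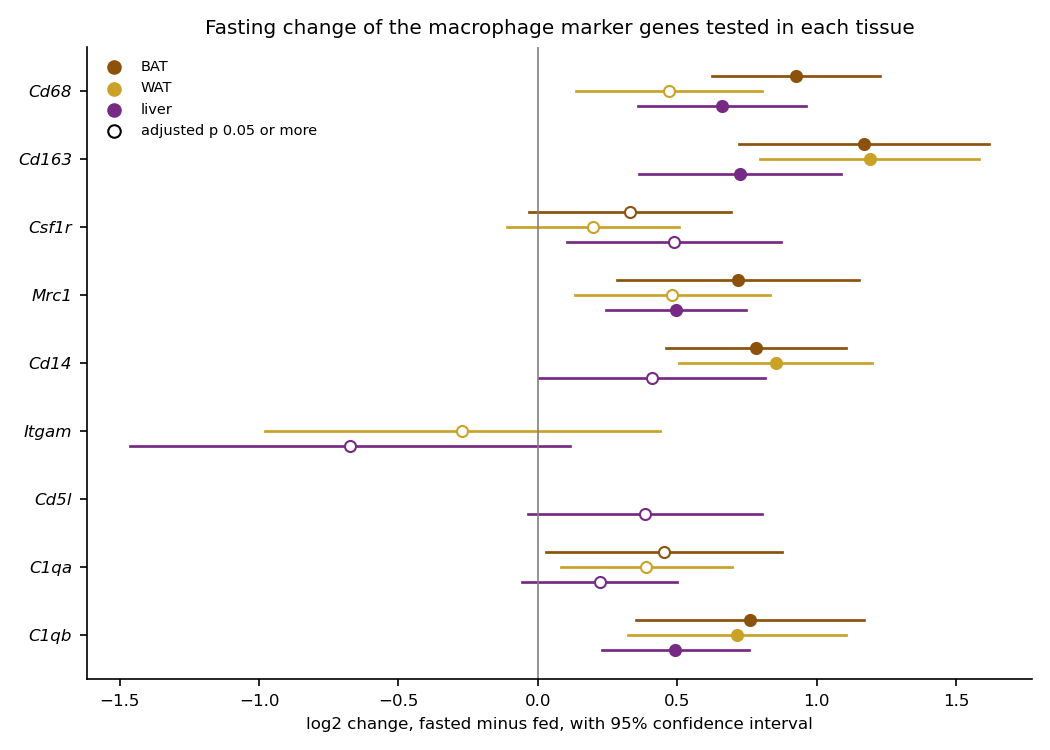
Log2 change with fasting (fasted minus fed) of each member in the tissues where it was tested, with 95% confidence intervals; filled points passed an adjusted p of 0.05. Cd163 has the highest estimates, 1.17 in BAT and 1.19 in WAT, and Itgam alone lies below 0.

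Cd163 encodes the receptor through which macrophages take up haemoglobin bound to haptoglobin. Its signal in BAT was 64.8, 79.4, 47.5 and 60.4 in fed animals 1, 2, 4 and 5, and 128, 199, 133 and 119.6 in fasted animals 6, 8, 9 and 10. Every fasted array was above every fed one, and fasted animal 8 was the highest. The log2 change was 1.17 ± 0.20 (SE, adjusted p = 0.00219, 2.25-fold). In WAT the fed signals were 102, 158, 173 and 139 and the fasted ones 362, 365, 306 and 269. The lowest fasted array again lay above the highest fed array, and the change was 1.19 ± 0.18 (adjusted p = 0.00184, 2.28-fold). In liver the fed signals were 117, 145, 110.3 and 111, and the fasted ones were 184, 236, 230.4 and 157. Here fed animal 2 and fasted animal 10 came closest, without overlap, and the change was 0.72 ± 0.16 (adjusted p = 0.0113, 1.65-fold). Haptoglobin itself (Hp), the carrier of the ligand, and haem oxygenase 1 (Hmox1), which breaks down the haem taken up, passed the test in none of the 3 tissues.

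C1qb encodes one of the 3 chains of C1q, the recognition part of the classical complement pathway, which macrophages make in tissues. In BAT its signal was 153, 196, 129.8 and 204 in the fed arrays and 252, 351, 232 and 326 in the fasted arrays. Fed animal 5 and fasted animal 9 stood closest, and the change was 0.76 ± 0.18 (adjusted p = 0.0122). In WAT the signals were 468, 555, 590.2 and 445 fed and 979, 1069, 629 and 755 fasted. Fasted animals 6 and 8, with the high T and B cell markers, were the highest, and fasted animal 9 lay close above the fed range. The change was 0.71 ± 0.17 (adjusted p = 0.0202), and it was 0.39 (adjusted p = 0.197) without the 3 arrays high in lymphocyte markers. In liver the signals were 499.9, 523, 492 and 566 fed and 721, 747, 856 and 621 fasted, all fasted ones above all fed ones. The change in liver was 0.49 ± 0.12 (adjusted p = 0.0163).

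C1qa encodes a second C1q chain, and its estimates lay above 0 in all 3 tissues, short of the threshold in the test of each tissue alone. Its signal was 316, 432, 251 and 426 in fed and 405, 581, 415 and 526 in fasted BAT. The groups overlapped, and the change was 0.45 ± 0.19 (adjusted p = 0.107). C1qa was called in 2 of 23 alternatives in BAT, in 1 model of all 24 arrays (adjusted p = 0.0444) and on scan day 2 alone (adjusted p = 0.0373). In WAT it was called in 1 of 23, with scan day as a block (adjusted p = 0.0446). In WAT it went from 854 ± 118 to 1119.6 ± 165 (0.39 ± 0.14, adjusted p = 0.0787), and in liver from 1148 ± 156 to 1335 ± 155 (0.22 ± 0.13, adjusted p = 0.261). C1qc, the gene of the third chain and no member of the list, rose in BAT from 266 ± 86.6 to 485 ± 149 (0.87 ± 0.27, adjusted p = 0.0337) and in WAT from 715 ± 133 to 1087 ± 213 (0.60 ± 0.17, adjusted p = 0.0385). Its change in liver was 0.38 ± 0.18 (adjusted p = 0.184). Over the 24 arrays C1qa and C1qb varied together: once each array was set against its group mean, their deviations had a Pearson r of 0.884. Each was the gene most like the other among 10448 by this measure, and C1qc came next for C1qb at 0.834. These arrays share tissue, scaling and scan day, and the values are descriptions over n = 24.

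Cd68 encodes a glycoprotein of late endosomes and lysosomes and is widely used to stain macrophages. In BAT its signal was 129.6, 159, 186 and 133 in fed animals and 265, 294, 297 and 295 in fasted animals. The 2 groups lay far apart, with fasted animal 6 somewhat below the other fasted arrays, and the change was 0.93 ± 0.14 (adjusted p = 0.000876, 1.90-fold). In liver the signals were 287, 326, 321 and 281 fed and 479.9, 444, 604 and 411 fasted, without overlap. Fasted animal 9 was the highest, and the change was 0.66 ± 0.14 (adjusted p = 0.00745, 1.58-fold). In WAT the fed signals were 236, 290.1, 257 and 184 and the fasted ones 360.3, 356, 326 and 289. Fed animal 2 was just above fasted animal 10, and the change of 0.47 ± 0.15 missed the threshold (adjusted p = 0.0554), which it passed in 1 model of all 24 arrays (adjusted p = 0.0212), with the filter at the 60th percentile (adjusted p = 0.0464) and without fed animal 2 (adjusted p = 0.0435) or fasted animal 10 (adjusted p = 0.0476). Deviations of Cd68 from the group mean over the 24 arrays had r from 0.06 with Mrc1 to 0.35 with Csf1r among the other genes of this list above the filter in all tissues.

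Mrc1 encodes the mannose receptor, which takes up glycoproteins ending in mannose. Its BAT signal was 294, 261, 169.8 and 249 fed and 398, 531, 326 and 347 fasted. Fasted animal 8 was well above the rest and the groups did not overlap, with a change of 0.72 ± 0.20 (adjusted p = 0.0212). Without fasted animal 8 the adjusted p was 0.054. In liver it was 670.2, 526, 633 and 598 fed and 901, 774, 916 and 827 fasted. All 4 fasted livers were above all fed ones, and the change was 0.50 ± 0.11 (adjusted p = 0.0119). In WAT it went from 545 ± 81.2 to 765 ± 139.6, with fasted animal 10 at 592 inside the fed range (0.48 ± 0.16, adjusted p = 0.0587). The WAT call was made without that array (adjusted p = 0.0217) and, among other alternatives, with quantile normalization (adjusted p = 0.0432) and in 1 model of all 24 arrays (adjusted p = 0.0452).

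Cd14 binds lipopolysaccharide and passes it to the receptor Tlr4 with its partner Ly96. In BAT its signal was 247, 353, 238 and 318 fed and 448, 559.7, 494 and 469 fasted. The lowest fasted array was above the highest fed one, and the change was 0.78 ± 0.15 (adjusted p = 0.00325, 1.72-fold). In WAT the signals were 828, 1058, 930.2 and 975 fed and 1379, 1647, 2313 and 1611 fasted. Fasted animal 9 stood above the other fasted arrays, all of which exceeded the fed ones, and the change was 0.85 ± 0.16 (adjusted p = 0.00497, 1.81-fold). In liver the signals were 709, 1121, 1152 and 1091 fed and 1505, 981, 1547 and 1361 fasted. Fasted animal 8 fell within the fed range and fed animal 1 lay far below the other fed livers, and the change of 0.41 ± 0.18 missed the threshold (adjusted p = 0.154). Of the genes that act with Cd14, Tlr4 and Ly96 passed the test in no tissue. Lbp, the plasma protein of hepatocytes that loads lipopolysaccharide onto Cd14, rose in liver from 776 ± 226 to 1846 ± 312 (1.27 ± 0.19, adjusted p = 0.00109). Myd88, the adaptor below Tlr4 and the interleukin 1 receptor, rose in BAT from 236 ± 45.4 to 499 ± 74.1 (1.08 ± 0.16, adjusted p = 0.000876) and in liver from 415 ± 85.4 to 699 ± 51.8 (0.77 ± 0.15, adjusted p = 0.00454).

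Csf1r, the receptor through which Csf1 and Il34 keep macrophages alive, passed the test of each tissue alone in none of the 3. Its signal was 162, 215, 149 and 221 in fed and 215, 284, 228 and 207 in fasted BAT. The ranges overlapped, and the change was 0.33 with a 95% interval from -0.03 to 0.69 (adjusted p = 0.164). In WAT it went from 433 ± 33.8 to 502 ± 89.7 (0.20, interval -0.11 to 0.51, adjusted p = 0.365). Fasted animals 6 and 8, at 594 and 557, were above all fed WAT arrays, and fasted animal 9, at 399, was below them. In liver it went from 282 ± 54.7 to 395 ± 65.7 (0.49, interval 0.10 to 0.87, adjusted p = 0.0766). There it was called in 3 of 21 alternatives, with scan day as a block (adjusted p = 0.0439), in 1 model of all 24 arrays (adjusted p = 0.0409) and without fasted animal 10 (adjusted p = 0.0401). Of its ligands, Csf1 fell in WAT from 173 ± 14.6 to 128 ± 12.3 (-0.43 ± 0.12, adjusted p = 0.0352) and passed in neither BAT nor liver, and Il34 passed in none.

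Itgam and Cd5l set themselves apart from the other members by their levels. Itgam, the alpha chain of the integrin CD11b/CD18 of monocytes, macrophages and neutrophils, was low on every array. Its signal ran from 1.88 to 41.8 in BAT, from 22.4 to 69.7 in WAT and from 5.11 to 24.1 in liver. Its estimates were below 0 where it was tested, -0.27 ± 0.32 in WAT (adjusted p = 0.61) and -0.67 ± 0.36 in liver (adjusted p = 0.225), and the fed and fasted arrays overlapped in both. Its partner chain Itgb2 passed the test in no tissue. Cd5l encodes a secreted protein of tissue macrophages that is abundant in Kupffer cells. Its brighter probe set gave 948, 1477, 818 and 1277 in fed and 1364, 1145, 1544 and 1763 in fasted liver. The groups overlapped, and the change was 0.38 ± 0.19 (adjusted p = 0.194), called with scan day as a block (adjusted p = 0.0157) and under no other alternative run. No BAT or WAT array exceeded 19.6. Its second probe set was dim everywhere, at 4.44 to 34.1 in liver and at most 6.65 in fat, so the 2 probe sets agreed only in being higher in liver. No detection calls were used, and whether these low signals lay above background was not determined.

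Of the 13 skeletal muscle markers 12 rose with fasting in BAT, and in WAT they were high in fasted animals 8 and 10. The fed BAT array with high muscle markers, animal 5, can be set beside the 4 fasted BAT arrays, which had similar muscle marker levels. Fed and fasted BAT arrays did not overlap for Cd68, Cd163, Mrc1, Cd14 and C1qb. All 4 fasted arrays were thus bound to lie above fed animal 5 for these 5 members. Their order is therefore no check on muscle content. For Csf1r and C1qa not all fasted arrays were above fed animal 5. Fed animal 5 had 133 for Cd68 and 60.4 for Cd163, against lowest fasted values of 265 and 119.6. It had 204 for C1qb, 249 for Mrc1 and 318 for Cd14, against 232, 326 and 448. With a term for the muscle marker level in the fit, the change was 1.21 for Cd68 (adjusted p = 0.0138), 1.12 for Cd163 (adjusted p = 0.118) and 0.45 for C1qb (adjusted p = 0.477), and Cd68 was the only one of the 5 called. With fed animal 5 as the only fed array, Cd68 was again the only one called (1.10, adjusted p = 0.029), and Cd163 had 1.21 (adjusted p = 0.0826); that fit takes the lone array to vary like the fasted ones. In WAT the 2 fasted arrays with low muscle markers, animals 6 and 9, were both above all 4 fed arrays for Cd68, Cd163, Mrc1, Cd14 and C1qb. For Cd163, Cd14 and C1qb this followed from the lack of overlap between fed and fasted WAT arrays. Without fasted animals 8 and 10 the Cd163 change in WAT was 1.23 (adjusted p = 0.0145) and that of Cd14 was 0.92 (adjusted p = 0.0305), while C1qb was not called (0.62, adjusted p = 0.0978). Without the 3 WAT arrays high in lymphocyte markers, Cd163 (0.87, adjusted p = 0.022) and Cd14 (0.97, adjusted p = 0.0177) were still called. Without fed BAT animals 1 and 4, the arrays with the high actin ratio, Cd68 (0.97), Cd163 (1.01) and Cd14 (0.55) were called, and C1qb (0.51, adjusted p = 0.113) and Mrc1 (0.62, adjusted p = 0.0716) were not.

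**Figure D3:**
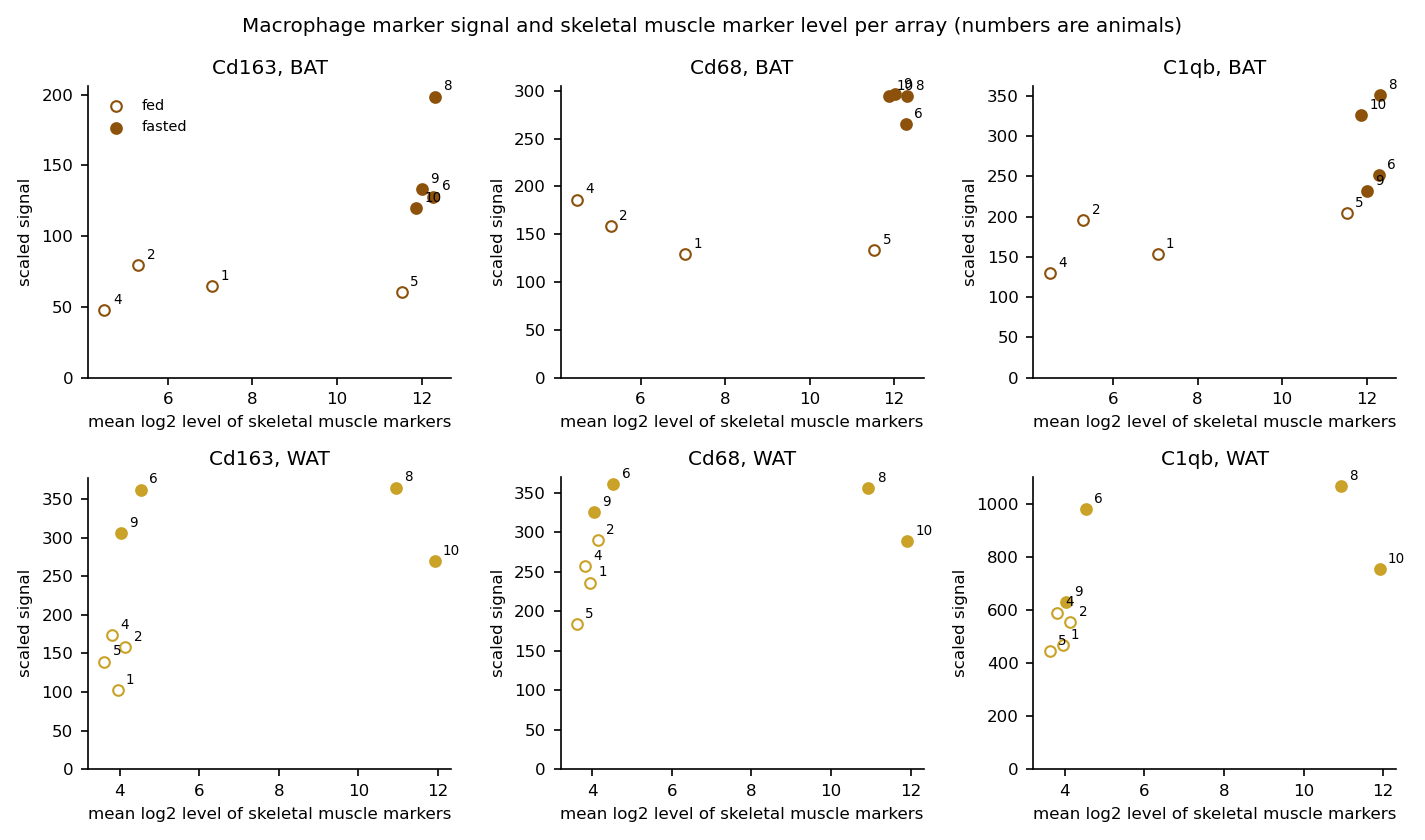
Scaled signal of Cd163, Cd68 and C1qb (vertical axes) against the mean log2 level of the skeletal muscle markers (horizontal axes) on the 8 arrays of BAT and the 8 of WAT, with animal numbers, open points for fed and filled for fasted. In BAT fed animal 5 is near the muscle level of the fasted arrays and lies below them in signal. In WAT fasted animals 6 and 9 are near the muscle level of the fed arrays and lie above them in signal. Except for Cd68 in WAT, these orders follow from the lack of overlap between fed and fasted arrays.

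Scan day was a further difference between arrays. In BAT and liver each of 2 scan days held 2 fed and 2 fasted arrays. The 2 fed BAT arrays of day 2 were animals 1 and 4, those with the high actin ratio. Feeding and the actin ratio cannot be told apart in BAT on that day. Within day 1 and day 2 the BAT change was 0.85 and 1.49 for Cd163, 1.01 and 0.84 for Cd68, 0.52 and 1.04 for Cd14, 0.45 and 1.06 for C1qb and 0.40 and 1.03 for Mrc1. For these 5 the direction was bound to hold on both days, since their fed and fasted BAT arrays did not overlap. Their direction is therefore no check on scan day. All but Cd68 had the larger difference on day 2. In liver the within-day changes were 0.58 and 0.87 for Cd163, 0.72 and 0.60 for Cd68, 0.42 and 0.56 for C1qb and 0.63 and 0.36 for Mrc1. In WAT, where day 1 had 1 fasted array and fasted animal 9 was scanned alone on a separate day, they were 0.85 and 1.44 for Cd163, 0.66 and 0.78 for Cd14 and 0.60 and 0.96 for C1qb. For these liver and WAT members, too, the direction followed from the lack of overlap. Single arrays also stood out across members: in BAT fasted animal 8 was the highest of its group for 6 of 7 members and fed animal 4 the lowest for 6 of 7, and in liver fasted animal 9 was the highest for 6 of 7.

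Whether the fasting change differed between tissues was tested directly, in a model of all 24 arrays. No member of the 9 passed in any of the 3 pairs of tissues by limma, against 1.56% of 10449 genes for BAT minus WAT, 11.3% for BAT minus liver and 8.08% for WAT minus liver. At an unadjusted p under 0.05, 1 member passed for BAT minus WAT (11.7% of genes), and 0 for BAT minus liver (25.2%) and 0 for WAT minus liver (21.2%). That 1 was Cd68, whose change was larger in BAT than in WAT by 0.46 ± 0.20 (95% interval 0.04 to 0.87, adjusted p = 0.342). For Cd163 the difference was -0.02 (interval -0.58 to 0.54) between BAT and WAT and 0.44 (interval -0.11 to 1.00) between BAT and liver. For C1qb it was 0.05 (interval -0.45 to 0.54) and 0.27 (interval -0.23 to 0.76) for the same pairs. These intervals reach up to 1.00, so equal changes were not shown. The 3 pairs share groups of arrays, and so do the tissue differences that follow.

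Most members were lower in BAT than in the other tissues. In fed animals 7 of 9 members were lower in BAT than in WAT and none was higher (43.3% of genes differed and 22.8% were lower). Cd14 was 3.30-fold lower in BAT (-1.72 ± 0.17, adjusted p = 2.95e-08), C1qb 3.02-fold lower (-1.59 ± 0.17, adjusted p = 6.17e-08) and Cd68 1.58-fold lower (-0.66 ± 0.14, adjusted p = 0.00058). The other 4, C1qa, Csf1r, Mrc1 and Cd163, ranged from -1.28 to -1.16. In fasted animals 6 of 9 were lower in BAT than in WAT (47.2% of genes differed and 25.0% were lower). Cd68 was the member no longer called, at 288 ± 15.2 in fasted BAT and 333 ± 33.1 in fasted WAT (-0.20 ± 0.14, adjusted p = 0.248). With the animal number as a block Itgam was called too in fed animals (adjusted p = 0.0385). It was also called with a pseudocount of 16 (adjusted p = 0.0242), with only the groups compared in the fit (adjusted p = 0.0325) and without fed BAT animal 4 (adjusted p = 0.0365). In fasted animals Itgam was called lower in BAT than in WAT without BAT animal 10 (-1.62, adjusted p = 0.0276). Against liver, 8 of 9 members were lower in BAT in fed animals (66.8% of genes differed and 24.2% were lower) and 8 of 9 in fasted animals (67.5% and 25.6%), all but Itgam. Without BAT animal 9, Itgam was called higher in fasted BAT than in fasted liver (1.23, adjusted p = 0.0228). The fed differences ran from -0.59 ± 0.17 for Csf1r (adjusted p = 0.00342) to -1.80 ± 0.17 for Cd14 (adjusted p = 2.17e-09), apart from Cd5l at -6.65 ± 0.55 (adjusted p = 1.18e-10). Cd5l was near 0 in fat, so the size of its differences depends in part on the pseudocount. Its second probe set had mean log2 levels of 1.68 in fed BAT and 4.27 in fed liver. In fasted animals the Cd163 difference was -0.48 ± 0.19 (adjusted p = 0.0279), with overlapping arrays, and the call was lost without any one of BAT animals 6, 9 and 10 or liver animals 8 and 9 (adjusted p from 0.0602 to 0.0889), and with scan day as a random block (adjusted p = 0.103).

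**Figure D4:**
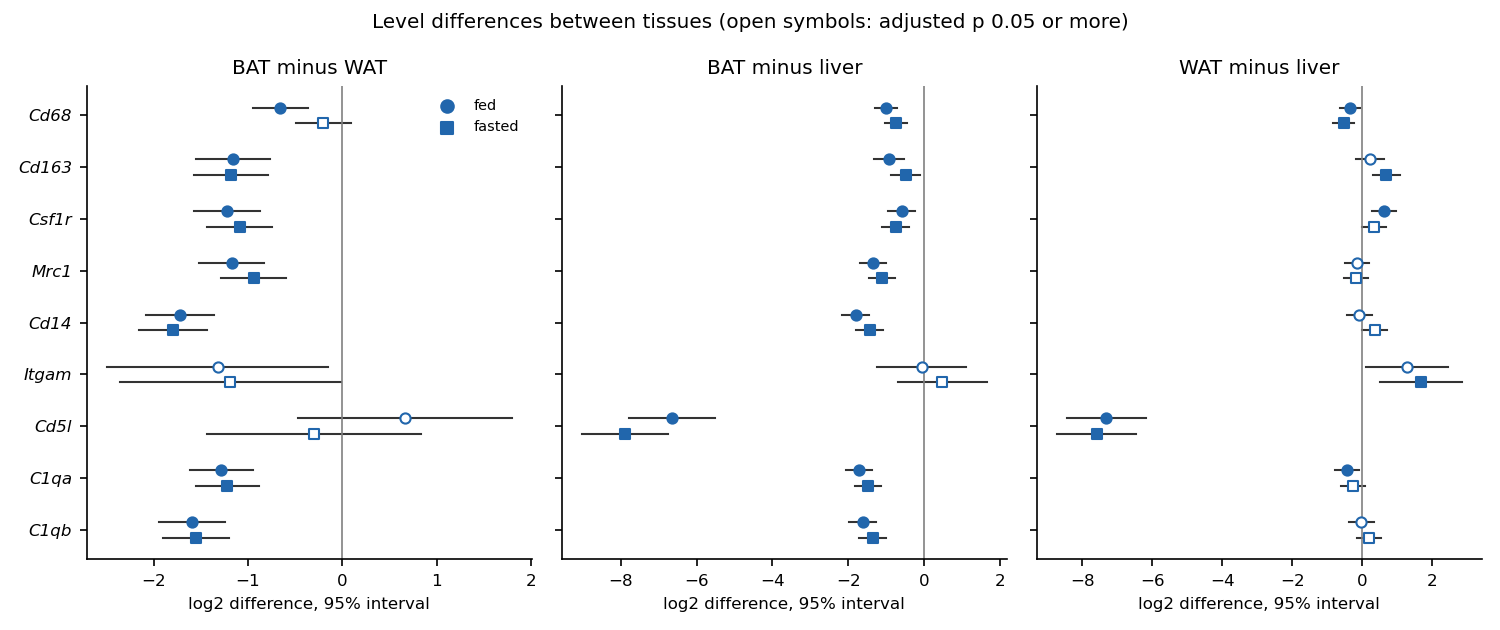
Log2 difference in level between tissues for each member, with 95% confidence intervals, in fed (circles) and fasted (squares) animals; filled symbols passed an adjusted p of 0.05. BAT lies below WAT and liver for most members, and the difference between WAT and liver is largest for Cd5l, at -7.32 fed and -7.59 fasted. These sizes depend in part on the pseudocount, since Cd5l was near 0 in fat.

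Between WAT and liver, which members were called depended on the scaling. In fed animals 4 of 9 members passed (63.3% of genes did). Csf1r was higher in WAT, at 433 ± 33.8 against 282 ± 54.7 (0.63 ± 0.17, adjusted p = 0.00203), and its arrays did not overlap. Cd68 (-0.34 ± 0.14, adjusted p = 0.0382), C1qa (-0.43 ± 0.16, adjusted p = 0.0259) and Cd5l (-7.32 ± 0.55, adjusted p = 2.13e-11) were lower in WAT. The Cd68 and C1qa arrays overlapped between the 2 tissues, and both calls were lost without WAT animal 1 or 5 or liver animal 2 (adjusted p from 0.0645 to 0.182). The Cd68 call was also lost without liver animal 4, and that of C1qa without liver animal 5. With scan day as a random block Cd68 was not called (adjusted p = 0.109), and C1qa was not with quantile normalization (-0.22, adjusted p = 0.248). In fasted animals 4 of 9 passed (63.7% of genes did). Cd163 was higher in WAT, at 326 ± 46.2 against 202 ± 37.6 (0.69 ± 0.19, adjusted p = 0.00283), and so was Itgam (1.67 ± 0.57, adjusted p = 0.0129), whose call was lost without WAT animal 6 (adjusted p = 0.051) or liver animal 8 (adjusted p = 0.0516) and with quantile normalization (1.29, adjusted p = 0.0615). Cd68 (-0.53 ± 0.14, adjusted p = 0.00219) and Cd5l (-7.59 ± 0.55, adjusted p = 1.06e-11) were lower. With the animal number as a block, Itgam was also called in fed animals (adjusted p = 0.0331), and Csf1r (adjusted p = 0.0437) and Cd14 (adjusted p = 0.0404) in fasted animals. Itgam in fed animals was called as well with a pseudocount of 16 (adjusted p = 0.0128) and with only the groups compared in the fit (adjusted p = 0.00141). Its fed WAT arrays did not overlap those of fed liver. The median of all genes in these comparisons with liver depended on the scaling: it was 0.25 for fed WAT minus liver and 0.28 for fed BAT minus liver with the common array mean, and -0.13 and -0.05 with arrays centred on their medians. With that centring the higher level in WAT was not called for Csf1r in fed (0.26, adjusted p = 0.188) or for Cd163 (0.27, adjusted p = 0.272) and Itgam (1.25, adjusted p = 0.0653) in fasted animals. It added lower calls in WAT for Mrc1 (-0.54), Cd14 (-0.46) and C1qb (-0.40) in fed animals (adjusted p from 0.0184 to 0.0485), and for Mrc1 (-0.60, adjusted p = 0.00918) and C1qa (-0.68, adjusted p = 0.000577) in fasted animals. With quantile normalization Cd14 was called higher in fasted WAT (0.68, adjusted p = 0.00124). Every scan day of WAT, BAT and liver held 1 tissue, so tissue and scan day cannot be told apart in these differences. The actin ratio was mostly higher in liver than in the 2 fat tissues, and its part in the differences with liver was not tested.

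Over the 6 groups the members fell into different orders. Fasted WAT was the highest group for Cd163, Csf1r, Cd14 and C1qb, and fasted liver for Cd68, Mrc1, Cd5l and C1qa. Fed BAT was the lowest group for Cd68, Cd163, Csf1r, Mrc1, Cd14, C1qa and C1qb. For Cd163 the order was fasted WAT (326), fasted liver (202), fasted BAT (145), fed WAT (143), fed liver (121) and fed BAT (63.0). Fasted WAT lay above the next group, and fed BAT below the one before it, without overlap, while each neighbouring pair from fasted liver to fed liver overlapped. For Cd68 the order was fasted liver (485), fasted WAT (333), fed liver (304), fasted BAT (288), fed WAT (242) and fed BAT (152). Fasted liver alone was separate from its neighbour.

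The genes most like each member in log2 signal over the 24 arrays were macrophage genes for some members and not for others. C1qb was the gene most like Mrc1 (r = 0.939) and Cd14 (r = 0.939), and Lyve1 was among the 3 most like C1qa (0.970), C1qb (0.941), Mrc1 (0.934) and Cd14 (0.922). C1qc came second for Cd163 (0.9035) and Csf1r (0.918), behind Acer2 (0.9044) and Lgals3bp (0.926), and Abca8a was second for Cd14 (0.925). The genes most like Cd68 were Oas1a (0.916), Ahctf1 and Pnpla7, and those most like Cd5l were Cyp4v3 (0.983), Slc22a8 and Kng2l1. For Itgam the highest r was 0.765, with Atg4a. By deviations from the group mean, the first genes were Enpp3 for Mrc1 (0.843), Hddc2 for Cd14 (0.783) and Ap3m2 for Cd163 (0.733). For Csf1r they were Zfat (0.838) and then C1qc (0.752). All of these are correlations over arrays that share tissues and scaling, n = 24, and carry no test.

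The lists of other macrophage genes were chosen with earlier results of these arrays known. Of 14 other macrophage and monocyte genes tested in BAT 1 rose and none fell, with a median change of -0.14. The 1 was Ctss, the lysosomal protease cathepsin S (0.61 ± 0.19, adjusted p = 0.0328). In WAT 2 of 17 rose, Ctss (0.72 ± 0.17, adjusted p = 0.0172) and the monocyte chemokine receptor Ccr2 (0.77 ± 0.22, adjusted p = 0.039), and 1 fell, Lgals3 (-0.54 ± 0.13, adjusted p = 0.0181), which encodes galectin 3. In liver 1 of 14 rose, the transcription factor gene Irf8 (0.49 ± 0.13, adjusted p = 0.0226). Adgre1, which encodes the macrophage surface protein F4/80, was at 28.2 ± 8.98 and 23.5 ± 7.5 in fed and fasted BAT, 93.3 ± 15.8 and 102 ± 24.5 in WAT, and 103 ± 54.8 and 131 ± 37.7 in liver. It passed in no tissue (adjusted p from 0.403 to 0.73).

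Among 6 genes of resident macrophages tested in each fat tissue, 1 rose in BAT and 1 in WAT, Lyve1 both times, and none fell. Lyve1, the hyaluronan receptor of lymphatic endothelium, liver sinusoids and a class of resident macrophages, went from 151 ± 41.0 to 327 ± 110.3 in BAT (1.10 ± 0.26, adjusted p = 0.0102) and from 566 ± 81.7 to 1292 ± 118 in WAT (1.20 ± 0.12, adjusted p = 0.000237). None of the 5 tested in liver passed, and the medians were 0.51, 0.40 and 0.41 in BAT, WAT and liver. None of the Kupffer cell genes passed, of 5 tested in liver, 4 in WAT and 3 in BAT. Clec4f went from 1240.2 ± 237 to 1761 ± 329 there (0.51 ± 0.16, adjusted p = 0.0503). Of the genes of lipid-associated macrophages, Gpnmb, a glycoprotein gene of lipid-laden macrophages, rose in WAT (0.92 ± 0.20, adjusted p = 0.0114) and liver (0.53 ± 0.15, adjusted p = 0.0306). Lipa, the lysosomal acid lipase gene, rose in WAT (0.64 ± 0.15, adjusted p = 0.0176), and the tetraspanin gene Cd9 rose in BAT (0.61 ± 0.12, adjusted p = 0.00436). In all 1 of 3 tested rose in BAT, 2 of 5 in WAT and 1 of 5 in liver, and none fell.

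Of 15 partners and ligands of the members, 3 rose in BAT and none fell, 2 rose and 1 fell in WAT, and 3 rose and 1 fell in liver. Beside those named above, C1r, the protease that C1q activates, rose in BAT (0.77 ± 0.22, adjusted p = 0.0247) and WAT (0.47 ± 0.13, adjusted p = 0.0346). In liver Serping1, the inhibitor of C1r and C1s, rose (0.38 ± 0.11, adjusted p = 0.028), and Icam1, an adhesion ligand of CD11b/CD18, fell (-0.40 ± 0.13, adjusted p = 0.0492). C1s and the nuclear receptor gene Nr1h3 passed in none. Of 5 cytokine and activation genes tested in BAT none rose and 2 fell, the monocyte chemokines Ccl2, from 284 ± 84.2 to 103 ± 27.4 (-1.44 ± 0.23, adjusted p = 0.00134), and Ccl7, from 55.4 ± 13.4 to 24.7 ± 1.12 (-1.08 ± 0.22, adjusted p = 0.00483). None of 6 in WAT and none of 5 in liver passed.

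**Figure D5:**
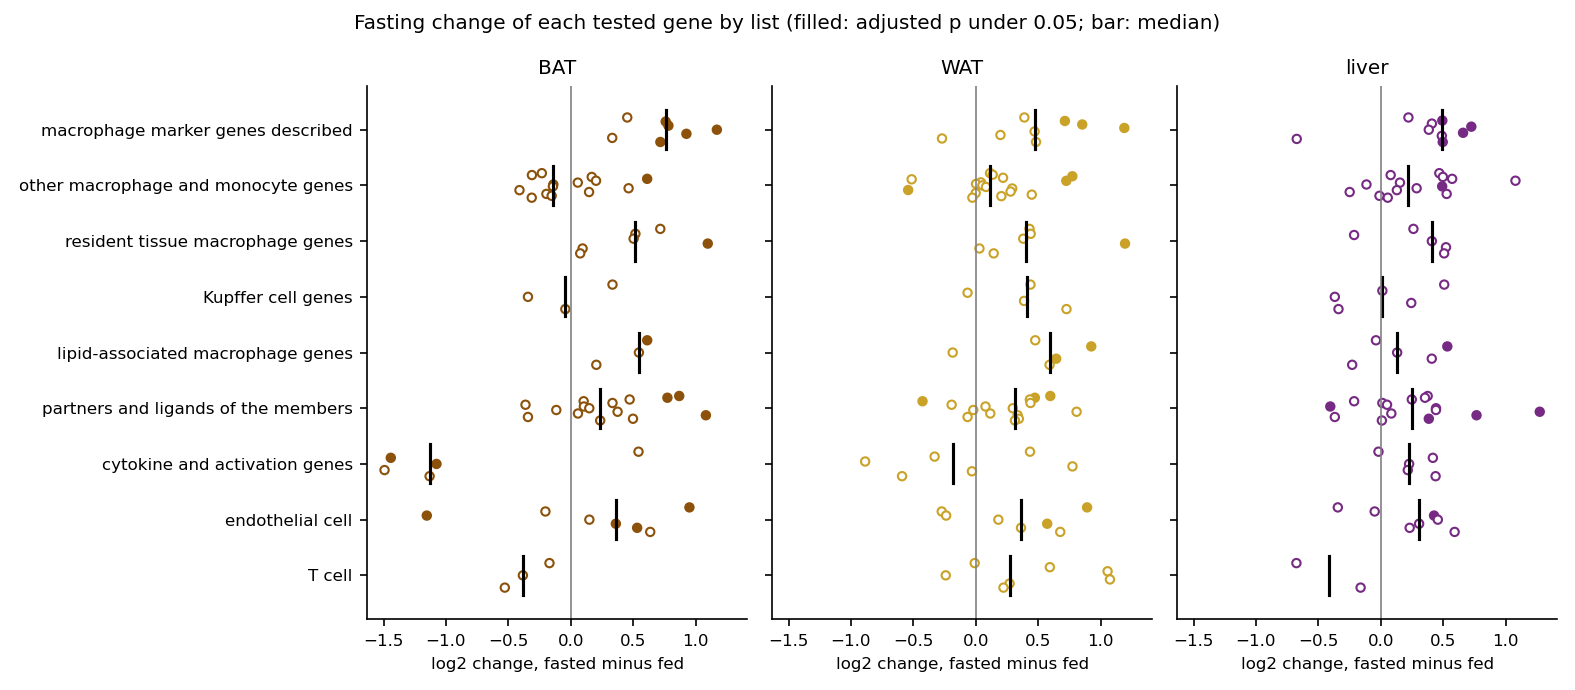
Log2 change with fasting of each tested gene, by gene list and tissue; filled points passed an adjusted p of 0.05 and the bar is the median of the list. The median of the macrophage marker genes described is 0.76 in BAT, where the other macrophage and monocyte genes have a median of -0.14 and the cytokine genes one of -1.13.

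Markers of other cells were read in the same way. T cell, B cell and neutrophil markers passed in no tissue (B cell markers were below the filter in BAT). Of 7 endothelial genes 3 rose and 1 fell in BAT, 2 rose in WAT and 1 rose in liver. Cldn5, a tight junction gene of endothelium, rose in BAT (0.95 ± 0.16, adjusted p = 0.00173) and WAT (0.89 ± 0.19, adjusted p = 0.0116), and Kdr, the receptor for vascular endothelial growth factor, fell in BAT (-1.15 ± 0.24, adjusted p = 0.00547) and rose in liver (0.43 ± 0.10, adjusted p = 0.0148). Of 6 fibroblast genes 1 rose in BAT, none in WAT and 2 in liver, and of the mast cell genes 1 of 5 rose in BAT and none in the others. Of 3 liver sinusoidal endothelial genes 2 of 2 tested rose in BAT, 1 of 3 in WAT and none in liver. Adipocyte markers gave 1 higher and 2 lower calls of 6 in BAT and in WAT, and 1 higher of 2 in liver. Brown adipocyte markers fell for 2 of 4 and hepatocyte markers for 1 of 4 in BAT, neither passed elsewhere, and red blood cell markers passed in no tissue. Skeletal muscle markers rose for 1 of 10 in WAT and 0 of 1 in liver. The part of these cells in the changes of the members was not tested.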

How the data were processed

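The deposited values were Affymetrix probe set signals of 24 arrays, intensities on a linear scale that the authors computed with MAS5, per the submitters' processing notes; its version and any scaling are not given in the sources used here. The deposited experiment files (unit other) hold scan settings, and scan day was read from them. Trimmed means differed between arrays (93.4 to 206), so every array was multiplied to reach the same trimmed mean (2% off each end), 129, and tests ran on log2(signal + 1.90), with 1.90 the 10th percentile of all scaled signals. Of 31099 probe sets 57 controls were left out; 20826 had 1 gene symbol in the platform annotation, 436 several and 9780 none. Symbols were updated through gene IDs for 20758 probe sets and through accessions for 2, and 66 kept theirs. A gene was its brightest probe set (14217 genes), tested above the 40th percentile of signal. The fasting effect was fitted per tissue, and tissue differences and their interactions on all 24 arrays, with limma 3.58.1 in R 4.3.3 (lmFit, eBayes with trend), two-sided, with Benjamini-Hochberg adjustment over all genes tested. The fits were tested on simulated data. The number of arrays and, for dim genes, low signal limit the precision; r between replicate arrays was 0.924 to 0.96. P-values of the fasting effect within a tissue measure the spread between arrays of different animal numbers, which also holds scan day and uneven muscle and lymphocyte content. Those of tissue differences and interactions use 1 spread pooled over all 24 arrays, some of which may come from 1 rat.

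Named genes were the 10 members, up to 3 genes per list and tissue in order of p, a set of partners, and the 3 genes most like each member; Icam1 was named after its values were seen. The lists were the other macrophage and monocyte, resident, Kupffer, lipid-associated, partner, cytokine and cell type marker lists. The members and lists were chosen with earlier results of these data known. Promoters were matched by gene ID for all 10 members. The alternatives were pseudocount, filter, centring, quantile normalization, scan day, muscle marker level, all probe sets, 1 model of all arrays and leaving out each array. Between tissues they included the animal number as a block and a fit of only the groups compared. Arrays high in lymphocyte or muscle markers or in the actin ratio were left out, and scan day was taken as a random block between tissues, after the data were seen.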

Additional observations from a re-analysis of the deposited data

Results flagged for a closer look

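In 3 of 60 groups of 4 arrays, 1 array lay far from the other 3 relative to the range of the group, where chance gives about 1 in 20. Cd68 in fasted BAT was 265 in animal 6, against 294 to 297 in the other 3. Cd14 in fed liver was 709 in animal 1, against 1091 to 1152. C1qa in fasted liver was 1564 in animal 9, against 1226 to 1279.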

How the results depend on the processing

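The BAT count of 5 members called became 2 on scan day 1 alone, 1 with a term for the muscle marker level, 3 without the arrays of high actin ratio and 1 with fed animal 5 as the only fed array; leaving out 1 array gave 4 to 5. On scan day 2 alone all 7 tested in BAT were called, with Csf1r (adjusted p = 0.0459) and C1qa (adjusted p = 0.0373) gained. Both fed BAT arrays of that day had the high actin ratio. Without them the change on the remaining BAT arrays was 0.09 for Csf1r and 0.15 for C1qa. The WAT count of 3 became 5 with the filter at the 60th percentile, 5 with all 24 arrays in 1 model and 0 on scan day 2 alone, and leaving out 1 array gave 2 to 5. The liver count of 4 became 2 on scan day 1 alone, 6 with scan day as a block, where Csf1r (adjusted p = 0.0439) and Cd5l (adjusted p = 0.0157) were gained, and 4 to 5 without 1 array. For fed WAT minus liver the 4 calls became 6 with median centring, 2 to 4 without 1 array, and 2 without WAT fed animal 1, WAT fed animal 5 or liver fed animal 2. For fasted WAT minus liver they became 2 with the filter at the 60th percentile, which left out the dim Itgam and Cd5l, and 3 to 5 without 1 array. The cause of the other changes was not tested, except that the fits of 1 scan day held at most 4 arrays in place of 8. Cd68 was called in all 23 alternatives in BAT and all 21 in liver. Cd163 was called in 21 of 23 in BAT, 22 of 23 in WAT and 20 of 21 in liver, and C1qb in 19, 14 and 20. C1qb in WAT was lost without fed animal 5, fasted animal 6 or fasted animal 8 (adjusted p up to 0.0623), and with median centring, as was Mrc1 in BAT. No call changed direction. Median centring moved the higher calls in WAT from 888 of 1867 to 463 of 1525, and in liver from 968 of 1849 to 725 of 1746. For fed BAT minus liver it moved them from 4458 of 6982 to 3042 of 6535, for fasted from 4376 of 7049 to 3086 of 6748, for fed WAT minus liver from 4250 of 6612 to 2692 of 6263, and for fasted from 4206 of 6652 to 2568 of 6526. The number of genes called in BAT, 2782, became 1203 on scan day 1 alone and 357 with the muscle term; in WAT 1867 became 262 on scan day 2 alone, and in liver 1849 became 2929 with scan day as a block.

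Between tissues, deviations of arrays with the same animal number correlated at -0.00912 to 0.153 over 24 pairs, and 5 of the pairs were over 0.1. Pairing asked for every pair over 0.1, so the fits stand without it. In 19 of the 24 pairs the array correlated best with its own number, of 4 candidates each, a hint in the data that numbers may be shared. Equal numbers mostly fell on scan days of the same order in each tissue. Animal number and scan day cannot be fully told apart in these correlations. With the replicate block, Itgam was called for fed BAT minus WAT (adjusted p = 0.0385) and fed WAT minus liver (adjusted p = 0.0331), and Csf1r (adjusted p = 0.0437) and Cd14 (adjusted p = 0.0404) for fasted WAT minus liver. No paired analysis was possible for the fasting effect because fed and fasted rats share no numbers. Scan day as a fixed block could not be fitted between tissues. The number of arrays and dim signals (Itgam, Cd5l in fat) limit what could be called.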
